A study of Arabidopsis thaliana with 54 samples.

Results

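The comparison concerns whole seedlings of Arabidopsis thaliana, wild type Col-0, that had been in the dark for 8 h after either a short or a long day. Its members are 6 of the 54 libraries of the series: SD ZT16, replicates A, B and C, from plants in short days (SD, lights on for 8 h and off for 16 h), and LD ZT00, replicates A, B and C, from plants in long days (LD, lights on for 16 h and off for 8 h). They were chosen by time since lights-off. ZT is zeitgeber time, the hours since lights came on, so the SD plants were sampled 16 h after dawn, in the middle of their night, and the LD plants at the end of their night, at the point of dawn but labelled as harvested in darkness. All plants had grown for 10 days in equinox days (EQ, lights on for 12 h and off for 12 h) and then spent 2 days in the shifted photoperiod. The labels give an age of 12 days, and the methods give harvest on day 13. Each replicate was a pool of seedlings from 1 plate, with shoot, hypocotyl and root together. A level per library therefore averages over organs, and fewer cells of a type and less RNA per cell cannot be told apart. Photoperiod, hours since dawn and hours to the next dawn differ together between SD ZT16 and LD ZT00 and cannot be told apart from these 6 libraries. Another 3 sets of libraries are set beside them: EQ ZT20, also 8 h into the dark, EQ ZT16 with EQ ZT00, and SD ZT12 with LD ZT20, both 4 h into the dark.

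The plant circadian clock is built from transcription factors that repress each other in turn over the day. The MYB factors CCA1 and LHY accumulate around dawn and repress genes of the evening, while ELF3, ELF4 and LUX form the evening complex, which acts as a repressor at night. Many genes of photosynthesis, among them those for the chlorophyll-binding antenna proteins of photosystem II (LHCB), are under clock control and can begin to rise before dawn. Leaf starch made in the light is broken down at night at a rate that fits the length of the night, and genes of the sugar starvation response rise when carbon runs short. Samples matched by hours of darkness share the time without light but not the hours since dawn.

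Short stretches of the promoters of genes on which the results turn are shown first, chosen after their values were seen. RVE1, COL2, CRD1 and LHCB1.1 kept their call when any 1 library was left out, CCA1 and LHY are the core dawn factors, and LHCB6 had the highest mean LHCB level. Only genes with a match before the annotated gene start could be shown, and all those shown were lower in SD. LNK2 also kept its call, but its G-box lies after the gene start. Each stretch holds, in capitals, a match to the G-box (CACGTG, bound by bHLH and bZIP factors), the evening element (AAAATATCT, bound by clock MYB factors) or the CCA1 binding site (AAAAATCT), with up to 25 bases on either side. The sequences are from the RefSeq TAIR10.1 assembly, 5′ to 3′ on the strand of the gene, and both strands were searched from 250 bases before to 50 after the annotated gene start.
RVE1, minus strand of chr5:5693073-5693128: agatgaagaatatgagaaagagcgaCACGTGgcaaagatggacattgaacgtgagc
CCA1, plus strand of chr2:19245373-19245428: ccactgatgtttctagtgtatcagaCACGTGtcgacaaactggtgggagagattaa
LHY, minus strand of chr1:37921-37976: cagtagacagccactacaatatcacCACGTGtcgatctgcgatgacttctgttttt
COL2, minus strand of chr3:489623-489681: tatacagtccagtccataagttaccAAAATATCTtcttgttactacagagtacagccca
CRD1, plus strand of chr3:21076428-21076504: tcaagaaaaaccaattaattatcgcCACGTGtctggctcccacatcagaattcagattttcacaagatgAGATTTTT
LHCB1.1, minus strand of chr1:10476015-10476072: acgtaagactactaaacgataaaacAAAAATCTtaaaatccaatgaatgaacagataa
LHCB6, minus strand of chr1:5447974-5448029: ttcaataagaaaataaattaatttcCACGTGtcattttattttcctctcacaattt
In CRD1 the second run of capitals is the CCA1 binding site on the other strand. These matches are descriptions of the sequence and do not show binding.

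The deposited counts summed to 3033500 to 3648940 per SD ZT16 library and to 2430050 to 3595840 per LD ZT00 library without the spike-ins, and 10054 to 12391 genes had at least 1 count. LD ZT00 B was the shallowest library of the series. A share of 90.7 to 92.2% of the counts lay on genes that another annotated gene overlaps on the opposite strand, although such genes are 8988 of the 32833 identifiers. Of nuclear protein-coding genes without such a partner, 57.7% had a mean under 1 count in the 6 libraries, against 17.5% of those overlapped by 200 bases or more. Whether the library kit marked strand is not stated, so reads of a gene and of its opposite-strand partner cannot be told apart, and overlaps are given beside most of the called genes described. Lack of a partner does not show that a gene was fully counted either, and the cause of these shares was not tested. Of the 6 shoot markers, each was detected, and their summed level was 837 to 1243 CPM (counts scaled to a common library size) in SD ZT16 and 1484 to 1906 CPM in LD ZT00. Of the 10 root markers 3 were tested and none was called, PYK10 being the highest at 1963, 1877 and 2041 CPM in SD ZT16 and 2607, 1813 and 2812 CPM in LD ZT00, while all 6 seed storage markers and 4 of 6 floral markers were at 0 throughout. The part of these markers in the results was not tested.

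After equal time in the dark, 133 of 8272 tested genes (1.61%) differed between SD ZT16 and LD ZT00. Of these, 42 (0.508%) were higher in SD and 91 (1.1%) were lower, against a median log2 fold change of -0.01 over all genes tested. A gene is called here when the false discovery rate (FDR, the Benjamini-Hochberg adjusted p of edgeR's quasi-likelihood test over all tested genes) is under 0.05, and log2 fold changes are SD over LD with their standard error (SE). In all, 1021 genes had an unadjusted p under 0.05. The count of called genes depended on single libraries: it was 31, 41 and 42 without SD ZT16 A, B or C, and 56, 91 and 46 without LD ZT00 A, B or C. Without LD ZT00 C, 24 genes were higher and 22 lower. All 133 genes kept the sign of their fold change under each of these, but they had been called on these same libraries. Of the 41 called genes that the rule for naming picks, 8 were called with any 1 library left out (LNK2, RVE1, COL2, CRD1, LHCB1.1, LpxC2, AT1G07480 and AT1G18460), and 33 lost their call in at least 1 case. A library at 0 stood beside one with 30 or more counts in 14 other groups for LpxC2, 10 for AT1G18460 and 9 for AT1G07480. For LNK2 and RVE1 there were 4 and 1 such groups. Opposite-strand overlap was present for 109 of the 133 called genes (82.0%) and for 55.2% of all tested, and in 19 overlapping pairs both genes were called, with the same sign in all 19. Members of 19 lists of clock, light, starch, sugar and photosynthesis genes came to 218, of which 132 were tested, 1 was higher and 18 were lower in SD.

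**Figure D1:**
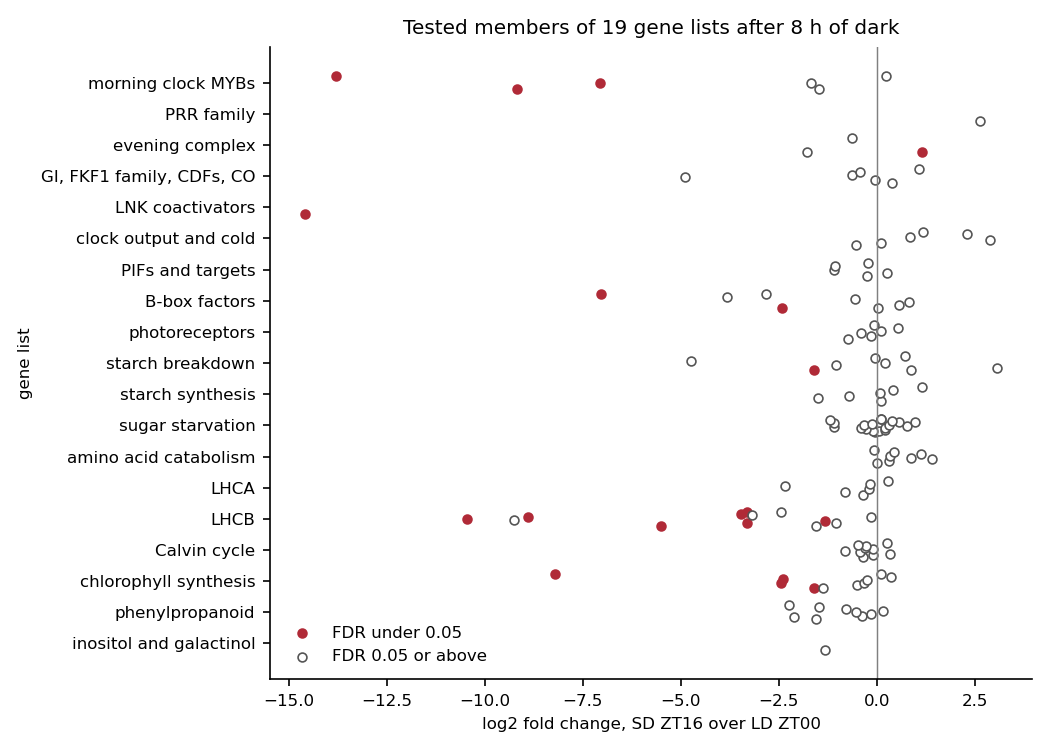
Log2 fold change of SD ZT16 over LD ZT00 (horizontal axis) for each tested member of 19 gene lists (rows), with filled points for FDR under 0.05 and open points otherwise. The filled points lie left of 0 except ELF3, in the evening complex row, and 7 of them are in the LHCB row.

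The dawn factors of the clock were at or near 0 in SD and present in LD. The morning MYB list has 10 members, 6 were tested, and CCA1, LHY and RVE1 were lower in SD, with a median log2 fold change of -4.37 over the 6, or -3.18 with the genes at 0 in SD set to their bound. RVE1, a MYB factor that links the clock to auxin (AT5G17300, chromosome 5, 5690225 to 5692992 in TAIR10.1), had 0 counts in each SD library, against 425, 651 and 601 CPM in LD ZT00 A, B and C. The groups did not overlap, and RVE1 was at least 622-fold lower in SD, set against a floor of 3 counts per SD library (FDR = 0.00403). Its partner on the opposite strand, AT5G17305, overlaps it by 225 bases and was also lower (log2 fold change -4.88, 23.2, 25.3 and 28.9 CPM in SD against 623, 799.9 and 865 CPM in LD).

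CCA1 is overlapped by no annotated gene and was low even at its highest. It had 0 counts in each SD library, against 58, 65 and 73 counts in LD ZT00 A, B and C, which are 16.5, 27.6 and 24.3 CPM. It was at least 25.4-fold lower in SD by the same floor (FDR = 0.0206). LHY, likewise without a partner, had 0, 3 and 0 counts in SD, against 153, 88 and 153 in LD (log2 fold change -7.06, SE 0.92, FDR = 0.0285). Both genes were separated without overlap, but neither kept its call throughout: FDR was 0.0544 to 0.141 for CCA1 and 0.0246 to 0.141 for LHY with 1 library left out, highest without LD ZT00 C for both, and LHY was called without SD ZT16 B only. The RVE4 interval, -4.39 to 1.01, and the RVE5 interval, -0.95 to 1.42, included 0, and neither was called.

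LNK2, a coactivator that works with RVE factors, had the largest fold of the genes lower in SD. It had 0 counts in all SD libraries, against 796, 978 and 1166 CPM in the 3 LD libraries, so it was at least 1090.4-fold lower in SD (FDR = 0.00316). LNK2 had 0 counts in 21 of the 54 libraries, and in 4 other groups a library at 0 stood beside one with 30 or more counts. The long non-coding RNA AT3G08405 overlaps LNK2 by 266 bases on the opposite strand and had 3.66, 3.23 and 2.60 CPM in SD against 254, 298 and 337 CPM in LD. For both genes every SD library was below every LD library. Of the other LNK genes, LNK1 and LNK3 had no count in any of the 6 libraries and LNK4 had 15 counts, in LD ZT00 B.

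**Figure D2:**
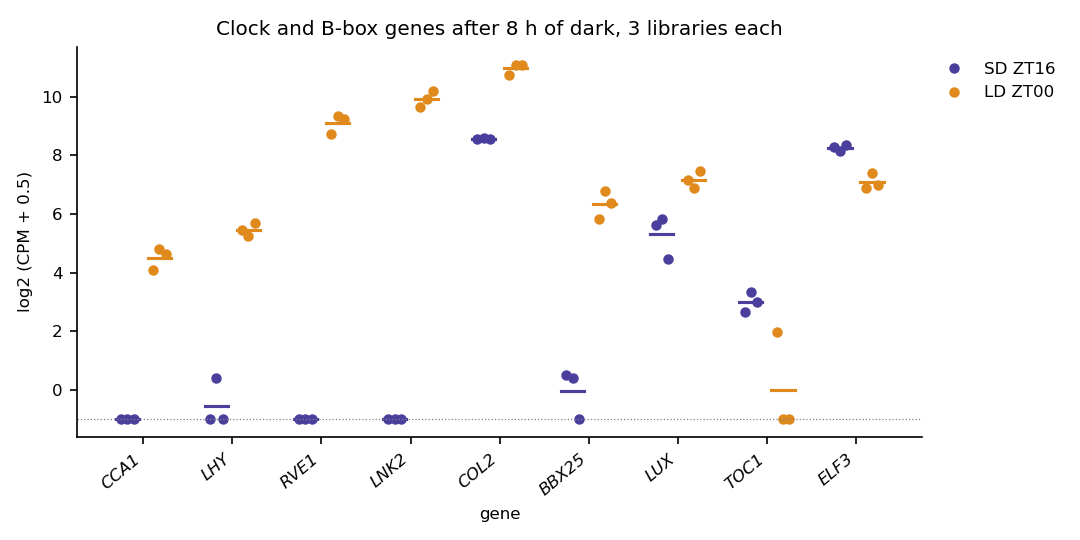
Level of 9 clock and B-box genes (horizontal axis) as log2 of CPM with 0.5 added (vertical axis), with 1 point per library, SD ZT16 left of LD ZT00, and a short line at each group's mean. The dotted line marks 0 counts, where the SD points of CCA1, RVE1 and LNK2 lie, and ELF3 is the gene called higher in SD.

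ELF3 was the evening complex gene that was called, and it was higher in SD. ELF3, the scaffold of the evening complex, had 312, 284 and 325 CPM in SD A, B and C and 116, 168 and 127 CPM in LD A, B and C. All SD values were above all LD values, and ELF3 was higher in SD by 1.17 on the log2 scale (SE 0.18, FDR = 0.0454). With 1 library left out its FDR ran from 0.0366 without LD ZT00 B to 0.219 without SD ZT16 A, and only without LD ZT00 B was it called. In 1 fit of all 54 libraries its FDR was 0.664. ELF3 had 0 counts in 6 of the 54 libraries, and in 2 groups such a library stood beside one with 30 or more counts. The opposite-strand gene AT2G08135 overlaps ELF3 by 183 bases. LUX, the DNA-binding member of the complex, had 48.8, 56.7 and 21.4 CPM in SD and 141, 117 and 177 CPM in LD. These values did not overlap either, but the difference was not called (log2 fold change -1.78, 95% interval -2.75 to -0.81, FDR = 0.117), and a gene overlaps LUX by 1507 bases. ELF4 was too low to test.

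Other clock genes gave few counts. TOC1, a repressor expressed in the evening, had 5.80, 9.68 and 7.47 CPM in SD and 3.41, 0 and 0 CPM in LD (FDR = 0.594, interval -1.02 to 6.32). PRR9, PRR7 and PRR5, which take over from the dawn factors in turn through the day, and GI were at or near 0 in both groups, each below the filter. GI and PRR7 had no count at all, where 3 counts represent a floor of 0.806 to 1.27 CPM in these libraries. A mean under 1 count was common, at 57.7% of nuclear protein-coding genes without an opposite-strand partner. The zeros therefore do not show that GI and PRR7 transcripts were absent or low. CO, the flowering regulator of long days, had 88.2, 80.4 and 64.0 CPM in SD and 42.1, 23.4 and 44.6 CPM in LD, separated but not called (log2 fold change 1.08, FDR = 0.191). The CO gene is overlapped for 1967 bases on the other strand.

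The called B-box zinc finger genes, relatives of CO, were lower in SD. Of 14 members 8 were tested, 2 were called, COL2 and BBX25, with a median log2 fold change of -1.48. COL2 (AT3G02380, chromosome 3, 487069 to 489467) had 376, 381 and 372 CPM in SD, against 1707, 2177 and 2169 CPM in LD. The 3 SD values lay within a narrow band far below all LD values, and the log2 fold change was -2.42 (SE 0.13, FDR = 0.00234). AT3G02370, which shares 771 bases with COL2 on the opposite strand, had a log2 fold change of -6.06. BBX25, a negative regulator of seedling responses to light, had 3, 3 and 0 counts in SD against 199, 258 and 245 in LD (log2 fold change -7.04, FDR = 0.0185). Its FDR with 1 library left out was 0.0224 to 0.119, highest without SD ZT16 A, and it was called without SD ZT16 C only. BBX24 had 249, 0 and 0 counts in SD and 0, 1380 and 1488 in LD, overlapping, and was not called.

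Long non-coding RNAs on the strand opposite to flowering genes were chosen for description after their values were seen. AT1G69572, known as FLORE, lies opposite CDF5, a repressor of CO, over 1241 bases. It had 8.85, 8.87 and 5.20 CPM in SD and 384, 125 and 373 CPM in LD, a log2 fold change of -5.26 (FDR = 0.0174). CDF5 itself had 189, 160.2 and 136 CPM in SD and 85.3, 463 and 107 CPM in LD, which overlap (log2 fold change -0.43, interval -2.07 to 1.2). AT5G15845, opposite COL1 over 1807 bases, had 318, 336 and 135 CPM in SD and 4217, 6820.5 and 5512 CPM in LD (log2 fold change -4.39), while COL1 had a log2 fold change of 0.05 with an interval of -0.84 to 0.93. In both pairs the counts listed for the non-coding gene were lower in SD without overlap of the groups, and its coding partner was not called. Reads of a gene and its partner cannot be told apart here, so the change is not shown to be that of the non-coding RNA.

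The antenna of photosystem II was the list with the most called members. Of 14 LHCB genes, 13 were tested, 7 were called, all lower in SD, and all 13 had a negative log2 fold change, with a median of -3.31. Their summed level was 555 to 902 CPM in SD and 4061 to 8035 CPM in LD. The sum leaves out AT2G08665, which lies opposite LHCB1.5 and had means of 18566 CPM in SD and 42217 CPM in LD. Reads of a gene and its partner cannot be told apart, so the sum is a level of the genes as listed only. Within it, LHCB6, a minor antenna protein, held the largest part, with 419.6, 531 and 298 CPM in SD and 5195, 2588 and 4678 CPM in LD. The LD value of replicate B was the lowest of the group and still above all SD values, and the log2 fold change was -3.32 (SE 0.36, FDR = 0.0177). The non-coding AT1G05207 overlaps LHCB6 by 358 bases and had a log2 fold change of -3.46.

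The major antenna genes LHCB1 and LHCB2 exist as near-identical copies, among which reads may be divided, so single members are uncertain. LHCB1.1 had 3.66, 3.23 and 2.27 CPM in SD and 152, 106 and 166 CPM in LD, with no overlapping gene (log2 fold change -5.51, SE 0.31, FDR = 0.00238). LHCB1.4 and LHCB1.5 had log2 fold changes of -3.31 and -1.32, and AT2G08665 overlaps LHCB1.5 by 1045 bases. LHCB1.5 had means of 39.2 CPM in SD and 97.6 CPM in LD, far below those of AT2G08665. LHCB1.3 had the highest LHCB1 means, 150 CPM in SD and 310 CPM in LD. It was separated but not called (log2 fold change -1.04, FDR = 0.131), and NRPA2 overlaps it by 108 bases. LHCB1.2 overlapped between the groups and was not called (log2 fold change -1.56, FDR = 0.307). LHCB2.1 and LHCB2.2 had 0 counts in each SD library and were at least 61.9-fold and 20.9-fold lower there. LHCB3 had 48.2, 59.7 and 36.0 CPM in SD and 697, 282 and 606 CPM in LD (log2 fold change -3.46, FDR = 0.0206), and ATM2 overlaps it by 186 bases. LHCB2.3 at 4.88, 0 and 0 CPM in SD and 1202, 582 and 1251 CPM in LD was separated by the same wide gap but not called (FDR = 0.0632), and AT3G27700 overlaps it by 595 bases. LHCB4.1 was the member nearest to 0, with a log2 fold change of -0.15 and an interval of -0.63 to 0.34. The number of LHCB members called was 2 without SD ZT16 A, 2 without B and 2 without C, and 1, 4 and 1 without LD ZT00 A, B or C.

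**Figure D3:**
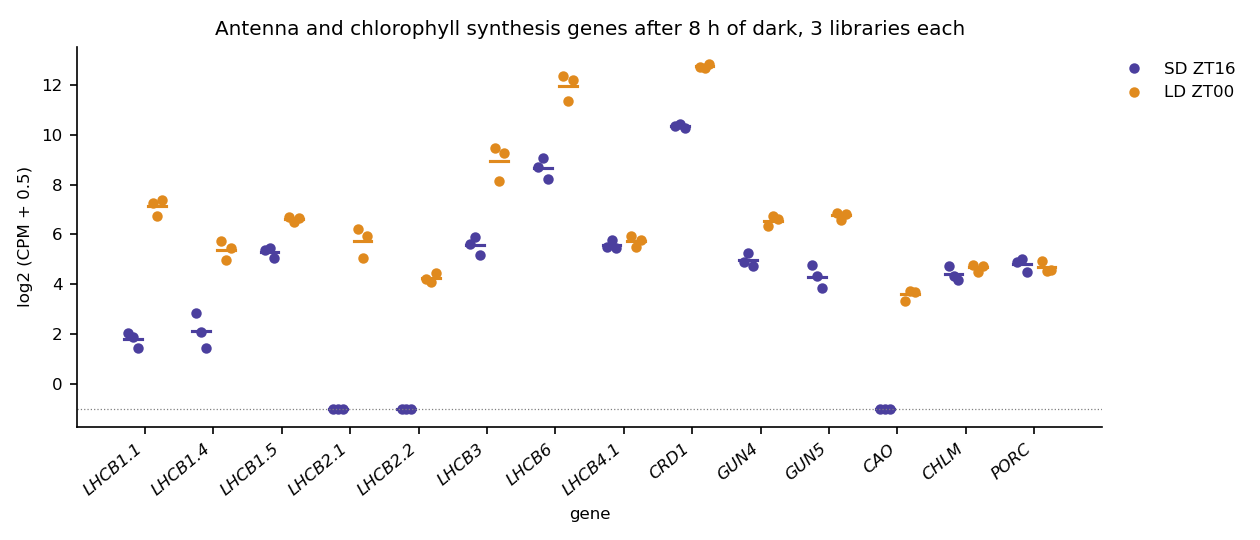
Level as log2 of CPM with 0.5 added (vertical axis) for 8 LHCB genes and 6 chlorophyll synthesis genes (horizontal axis), 1 point per library, SD ZT16 left of LD ZT00, with lines at group means. LHCB4.1, CHLM and PORC overlap between the groups, and LHCB2.1, LHCB2.2 and CAO lie on the dotted line of 0 counts in SD.

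Of the genes of chlorophyll synthesis, CRD1, GUN5, GUN4 and CAO were lower in SD. Of 11 members 10 were tested, and 4 were lower in SD, with a median log2 fold change of -0.93. CRD1, a subunit of the cyclase that closes the fifth ring of chlorophyll (AT3G56940, chromosome 3, 21076505 to 21078443), had 1291, 1366 and 1214 CPM in SD and 6626, 6552 and 7202 CPM in LD. The replicates of each group lay close together, and its log2 fold change of -2.40 (SE 0.10) had the lowest FDR of the comparison, 0.000824, shared with AT3G08405, AT3G02370 and AT5G17305. The non-coding AT3G08795 overlaps CRD1 by 259 bases and had a log2 fold change of -2.34. GUN5, the large subunit of magnesium chelatase, had 26.5, 19.6 and 14 CPM in SD and 117, 95.6 and 112 CPM in LD (log2 fold change -2.43, FDR = 0.0195). GUN4, which stimulates the chelatase, had a log2 fold change of -1.60 (FDR = 0.0345), and the gene that shares 946 bases with it, GCN2, had -2.06. GUN4 had means of 31.2 CPM in SD and 94.3 CPM in LD, far below the 1878 and 7809 CPM of GCN2. CAO, which makes chlorophyll b, had 0 counts in SD and 9.67, 12.7 and 12.6 CPM in LD, at least 13-fold lower in SD, and AT1G44414 overlaps it by 36 bases. The chelatase subunit CHLI1 (log2 fold change -0.49, interval -1.02 to 0.04), the methyltransferase CHLM (-0.26, -0.84 to 0.33) and the reductase PORC (0.11, -0.48 to 0.71) were not called. CHLI1 had 16.8, 19.6 and 15.9 CPM in SD and 21.6, 24.2 and 27.9 CPM in LD, which do not overlap. HEMA1, of the first committed step of the pathway, had 5.49, 6.99 and 6.49 CPM in SD and 20.2, 14.4 and 14.6 CPM in LD, likewise separated but not called (log2 fold change -1.37, interval -2.08 to -0.66, FDR = 0.103). With any 1 of the 6 libraries left out, CRD1 alone of the list was called.

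Photosystem I subunits were examined after values were seen, by gene symbol. Of 14 PSA genes 13 were tested, 4 were lower in SD (PSAD-2, PSAE-1, PSAN and PSAH-1) and 12 had a negative log2 fold change, with a median of -1.04. PSAE-1 had 1528, 1706 and 1395 CPM in SD and 6017, 4019.6 and 6124 CPM in LD (log2 fold change -1.80, FDR = 0.0179), and AT4G28755 overlaps it by 436 bases. Of 11 PSB genes of photosystem II 10 were tested and none was called, all 10 being negative with a median of -0.59. The 6 LHCA antenna genes of photosystem I (median -0.28) and the 10 Calvin cycle genes (median -0.29) were all tested and none was called. Of these, 5 LHCA and 8 Calvin cycle genes had a negative log2 fold change. LHCA2 (-0.82, interval -1.26 to -0.37, FDR = 0.117) and RCA of the Calvin cycle list (-0.81, -1.3 to -0.32, FDR = 0.144) were separated but not called. LHCA4 had -2.34 (interval -4.13 to -0.55, FDR = 0.25). RBCS1A, a small subunit of Rubisco, had 423, 569.8 and 356 CPM in SD and 559, 536 and 634 CPM in LD, with an interval of -0.85 to 0.13.

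Of starch and sugar genes, BAM3 alone was called. BAM3, the main beta-amylase of starch breakdown in leaves at night, had 516, 481 and 574 CPM in SD and 1099.6, 1887 and 1808 CPM in LD. The groups did not overlap and BAM3 was lower in SD (log2 fold change -1.61, SE 0.23, FDR = 0.0366), as was AT4G06665, which shares 518 bases with it (-1.39). AT4G06665 had means of 3482 CPM in SD and 9156 CPM in LD, above the 524 and 1598 CPM of BAM3. The FDR of BAM3 with 1 library left out was 0.0134 to 0.204, highest without SD ZT16 A, and BAM3 was called without LD ZT00 A only. The other 7 tested of 19 breakdown genes were not called. SEX4, MEX1, ISA3, AMY3 and LDA had no count in any of the 6 libraries, which does not show that they were not expressed. Of the 8 tested, 4 were positive and 4 negative. BAM9 had 2.44, 0 and 0 CPM in SD and 22.2, 20.0 and 25.3 CPM in LD. It was separated but not called (log2 fold change -4.74, interval -7.76 to -1.71, FDR = 0.163). Of 16 starch synthesis genes 6 were tested and none was called. APL1, a large subunit of ADP-glucose pyrophosphorylase, had 3075, 2964 and 2582 CPM in SD and 2558, 2495 and 2895 CPM in LD, with an interval of -0.17 to 0.40 for the log2 fold change.

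No gene of the sugar starvation list was called after 8 h of dark that followed 8 h of light in SD and 16 h in LD. Of 24 members 19 were tested, 10 were positive and 9 negative, and the median log2 fold change was 0.05. DIN10 had 77.8, 50.3 and 95.5 CPM in SD and 43.5, 121 and 51.9 CPM in LD (interval -1.09 to 1.18). KMD3, an F-box gene for a repressor of cytokinin signalling, was nearest to the threshold at 794, 899 and 821 CPM in SD and 1167, 949 and 1175 CPM in LD (log2 fold change -0.39, FDR = 0.276). PP2-A13 had 293, 202 and 429 CPM in SD and 411, 1042 and 675 CPM in LD, which overlap (log2 fold change -1.2, interval -2.24 to -0.17, FDR = 0.313), and PEX11E overlaps it by 489 bases. Of 9 genes of amino acid breakdown 8 were tested and none was called, 7 being positive with a median of 0.40. MCCA, of leucine breakdown, had an interval of -0.67 to 1.3. The intervals of DIN10 and MCCA reach beyond 1 on the log2 scale, so changes of that size could not be told from none here.

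No member of 7 further lists was called: cold and clock output (6 of 14 tested, median 1.01), PIFs and their targets (5 of 13, -0.25), photoreceptors (6 of 9, -0.11), GI with the FKF1, CDF and CO genes (6 of 10, -0.24), pseudo-response regulators (1 of 5), phenylpropanoid genes (9 of 20, -0.79) and inositol and galactinol genes (1 of 6). The nearest of these was PAL2, of the first step of phenylpropanoid synthesis, at 7.93, 6.72 and 3.57 CPM in SD and 21.0, 28.0 and 30.3 CPM in LD (log2 fold change -2.11, FDR = 0.064). CAT3, a catalase with its peak in the evening, had 60.4, 65.0 and 69.8 CPM in SD and 33.6, 33.6 and 19.6 CPM in LD, separated but not called (log2 fold change 1.17, FDR = 0.117).

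Of the 42 genes higher in SD, 32 had counts in both groups. The protein-coding genes without an overlapping partner and with the largest change were AT2G36470, AT1G22730, AT2G33830, AT4G12290 and AT2G37230. AT2G36470 had 146, 148 and 192 CPM in SD and 35.8, 44.6 and 30.6 CPM in LD (log2 fold change 2.13, SE 0.22, FDR = 0.015). AT2G33830 had 189, 185 and 187 CPM in SD and 35.3, 70.1 and 59.2 CPM in LD (log2 fold change 1.77, FDR = 0.0454). Separation of the groups was a condition of the rule that picked these 5, so it is not a result about them. AT1G22730, AT4G12290 and AT2G37230 lost their call whichever library was left out, and AT2G36470 and AT2G33830 each kept it in 1 of the 6 cases. The non-coding AT5G06505 had 105, 90.6 and 79.9 CPM in SD and 11.1, 6.37 and 5.65 CPM in LD, a log2 fold change of 3.56 (FDR = 0.0109, up to 0.0628 without SD ZT16 A, and also not called without SD ZT16 B or LD ZT00 C), and AT5G43440 overlaps it by 366 bases. AMT1;1, an ammonium transporter, and RbcX1, an assembly chaperone of Rubisco, are named after their values were seen. AMT1;1 had 61.6, 52.7 and 45.1 CPM in SD and 8.53, 4.67 and 11.6 CPM in LD, and RbcX1 179.7, 240.3 and 273 CPM in SD and 74.2, 67.5 and 66.2 CPM in LD, with log2 fold changes of 2.67 and 1.74. AMT1;1 shares 1709 bases with AT4G13505, which was also called, and RbcX1 shares 141 bases with AT4G04320.

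The largest fold changes in favour of SD belonged to genes that are listed at 0 in LD. LpxC2, from a family of closely related copies in which reads may be divided, had 744, 988 and 628 CPM in SD and 0 counts in LD, at least 755-fold higher in SD, and AT1G24822 overlaps it by 1982 bases. FTSH12, a chloroplast FtsH-family protein, was at least 97.3-fold higher, and GLR3.4, a glutamate receptor-like channel, at least 57.4-fold higher by the same floor, with overlaps of 96 and 370 bases. TOC159, a receptor of the chloroplast import machinery, had 13068, 5186 and 17878 CPM in SD and 208, 275 and 223 CPM in LD (log2 fold change 5.68, FDR = 0.0109). It shares 1442 bases with GSTF2, and its FDR was 0.139 in 1 fit of all 54 libraries. TOC159 varied widely in EQ ZT20, with a mean of 3352 CPM and a standard deviation of 3181 CPM. Its log2 fold change was -0.16 for EQ ZT16 over EQ ZT00 and 4.82 for SD ZT12 over LD ZT20. FTSH12 lost its call without SD ZT16 A (FDR = 0.0505), GLR3.4 without SD ZT16 A, B or C (up to 0.0628), and TOC159 without SD ZT16 A, LD ZT00 A or LD ZT00 C (up to 0.0759). Zeros of this kind also occurred within groups: of 28 called genes at 0 in every library of 1 group, 23 had at least 1 other group of the series in which a library with 0 counts stood beside one with 30 or more. This held for all 10 genes at 0 in LD and for 13 of the 18 at 0 in SD, the exceptions being CCA1, LHCB2.1, LHCB2.2, ABA1 and, named only for this count, RPB5E. Groups with such a mixture numbered 14 for LpxC2, 12 for FTSH12 and 9 for GLR3.4.

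EQ ZT20, also 8 h into the dark, was nearer in mean level to LD ZT00 for some named genes and nearer to SD ZT16 for others. On 1 scale for all 54 libraries, mean levels in SD ZT16, EQ ZT20 and LD ZT00 were 342, 2039.6 and 1851 CPM for COL2, 1172, 5594 and 6236 CPM for CRD1, and 378, 3052 and 3820.3 CPM for LHCB6. LNK2 stood at 0, 945 and 899 CPM, RVE1 at 0, 309 and 513 CPM, and CCA1 at 0, 18 and 20.9 CPM in the same order. In SD ZT16 each of these genes had the lowest of the 3 means. ELF3 was at 279, 159 and 126 CPM, also with EQ nearer to LD. EQ was nearer to SD in LpxC2 (714, 447 and 0 CPM), FTSH12 (92.0, 66.7 and 0), GLR3.4 (54.3, 35.6 and 0), AT1G07480 (0, 0 and 147) and AT1G18460 (0, 38.1 and 153). These 5 genes are all at 0 in 1 of the 2 main groups. The EQ ZT20 libraries varied widely in 4 of them. Their standard deviations were 387 CPM for LpxC2, 58.6 for FTSH12, 28.3 for GLR3.4 and 65.9 for AT1G18460. For these 4 the EQ mean is therefore not a steady level between the groups. By edgeR, 174 of 8531 genes (2.04%) differed between SD ZT16 and EQ ZT20, 65 of them higher (0.762%) and 109 lower (1.28%) in SD. Between EQ ZT20 and LD ZT00 7 of 8478 genes (0.0826%) differed, 5 of them higher (0.059%) and 2 lower (0.0236%) in EQ. Without EQ ZT20 C these counts were 46 and 0, the second with 308 genes at an unadjusted p under 0.05. Both comparisons share libraries with the main one, so their values are set side by side only.

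**Figure D4:**
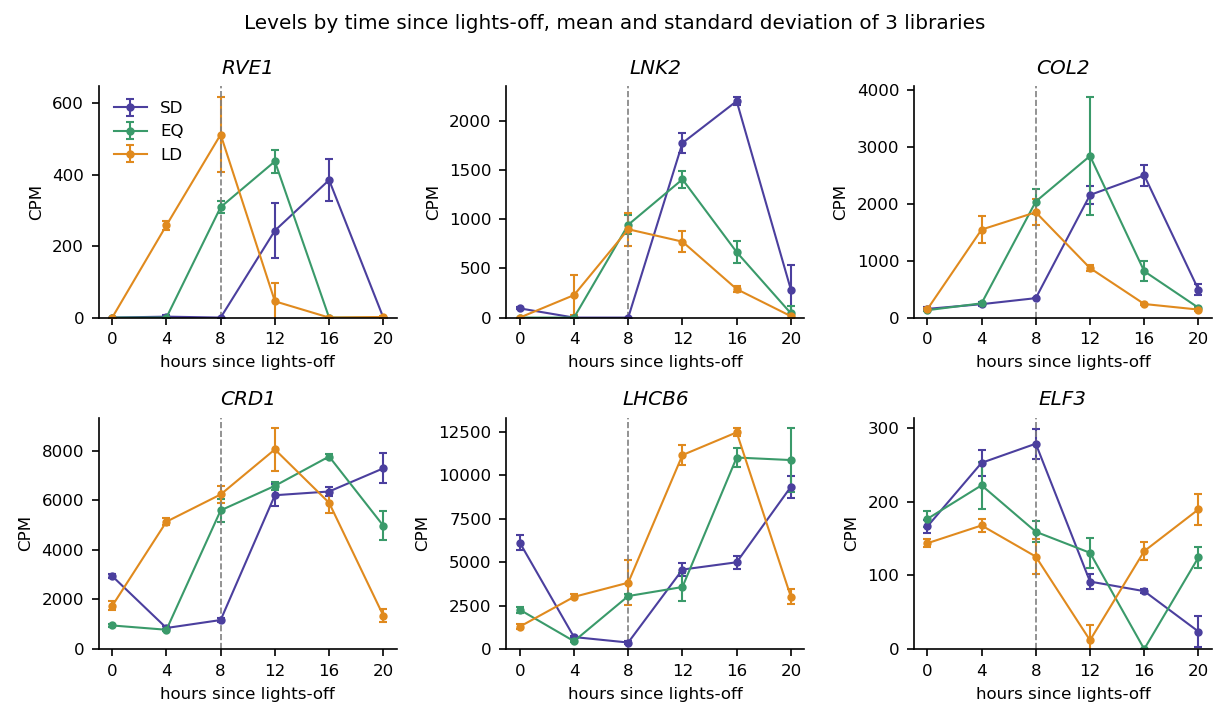
Mean CPM with the standard deviation of 3 libraries (vertical axes) against hours since lights-off (horizontal axes) in SD, EQ and LD for 6 genes. The dashed line at 8 h marks the comparison, where EQ and LD lie together above SD for LNK2, COL2, CRD1 and LHCB6, and SD lies above both for ELF3; lights were on again from hour 8 in LD, 12 in EQ and 16 in SD.

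Libraries that the main comparison does not use gave the same direction for most called genes. Between EQ ZT16 and EQ ZT00, the same clock times within 1 photoperiod but 4 h and 12 h into the dark, 389 of 8060 genes (4.83%) differed, 130 higher (1.61%) and 259 lower (3.21%) at ZT16. Of the 91 genes lower in SD ZT16, 86 were tested there, 82 had the same sign and 74 were called lower. Of the 42 higher genes, 40 were tested, 32 had the same sign and 14 were called higher. Between SD ZT12 and LD ZT20, 4 h into the dark, 1051 of 8095 genes differed (13%), 548 higher (6.77%) and 503 lower (6.21%) in SD. There 81 of the 91 were tested, 77 had the same sign, 64 were called lower and 2 were called higher. Of the 42, 41 were tested, 34 had the same sign and 25 were called higher. Among all tested genes the share with a negative sign was 48.5% and 50.3% in the 2 comparisons, against 95.3% and 95.1% of the genes lower in SD.

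Genes at 0 in all libraries of 1 group are given apart. Of the 10 at 0 in LD ZT00, 8 were tested between EQ ZT16 and EQ ZT00, with 4 of the same sign and none called, and 9 between SD ZT12 and LD ZT20, with 3 of the same sign and none called. Of the 18 at 0 in SD ZT16, 13 were tested between EQ ZT16 and EQ ZT00, with 10 of the same sign and 8 called, and 9 between SD ZT12 and LD ZT20, with 9 of the same sign and 6 called. The 3 of opposite sign were AT4G21770 (log2 fold change 1.65), AT2G41770 (0.98) and AT2G43630 (0.06). Of the 32 higher genes with counts in both groups, 28 and 31 had the same sign and 14 and 25 were called. Of the 73 lower genes with counts in both groups, 72 of 73 and 68 of 72 had the same sign. Log2 fold changes for EQ ZT16 over EQ ZT00 and for SD ZT12 over LD ZT20 were -3.48 and -2.69 for COL2, -3.06 and -2.57 for CRD1, and -2.96 and -2.09 for LHCB6, all called. ELF3 had 0.79 (FDR = 0.0639) and 0.62 (FDR = 0.0143). A direct test of the difference after 8 h against that after 4 h of dark called 51 of 10140 genes (0.503%), 12 of them among the 133. That test shares the SD ZT16 and LD ZT00 libraries with the main comparison.

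**Figure D5:**
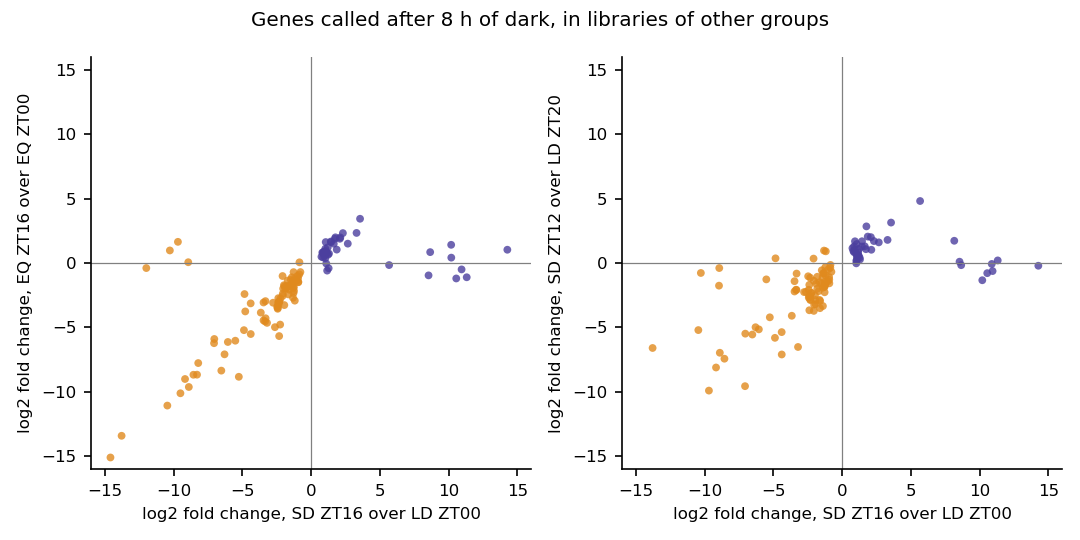
Log2 fold change of the called genes in SD ZT16 over LD ZT00 (horizontal axes) against EQ ZT16 over EQ ZT00 (left, vertical axis) and SD ZT12 over LD ZT20 (right, vertical axis), 1 point per gene. Points in the lower left and upper right of each panel have the same sign in both, and the points near 0 at the far right are genes listed at 0 in LD ZT00.

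Promoter windows were compared by motif content as a description. A G-box was found in 16 of the 91 windows of genes lower in SD (17.6%), in 3 of the 42 of genes higher in SD (7.14%) and in 7.25% of windows of all tested genes. The CCA1 binding site was found in 13 of the 91 (14.3%), 2 of the 42 (4.76%) and 7.33% of all tested. The evening element was found in 2 of the 91 (2.2%), 3 of the 42 (7.14%) and 2.92% of all tested. Over the 32540 nuclear genes with a full window the shares were 7.11%, 7.48% and 2.64% for the G-box, the CCA1 binding site and the evening element. Of the stretches shown, the G-boxes of RVE1, CCA1, LHY, CRD1 and LHCB6 belong to genes lower in SD, and the evening element of COL2 is 1 of the 2 among the lower genes.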

How the data were processed

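RNA-seq of pooled whole seedlings was used, 6 libraries for the main comparison and 3 further sets beside it, grouped as the sample labels give them. Per the submitters' processing notes and the methods, the authors trimmed reads with Trimmomatic 0.39, aligned them to TAIR10 with spike-in sequences using HISAT2 2.1.0 with a stranded setting, and quantified genes with StringTie 2.1.2. The deposited table holds whole-number counts per gene from prepDE, not normalized. Spike-in rows were left out. Gene names, positions, overlaps and promoter sequence came from RefSeq TAIR10.1, in which 32548 of 32833 identifiers matched.

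Tests were run with edgeR 4.0.16 (R 4.3.3). Genes passing filterByExpr (minimum count 10) were normalized by TMM, and the quasi-likelihood test was fitted to the 6 libraries of each comparison, with Benjamini-Hochberg adjustment and a threshold of 0.05. The methods of the study name edgeR without its test. Levels are CPM on TMM-scaled totals. Totals were 2430050 to 3648940 in the 6 libraries, so 3 counts are 0.806 to 1.27 CPM, and such floors cover counting error only. P-values measure the spread between pools from separate plates. Replicates within a group differed by more than sampling noise. Alternatives used DESeq2 1.42.0, and figures used matplotlib 3.10.9 in Python 3.11. The test code was tested on simulated data.

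Named genes are first the 10 in each direction with the largest change among called genes of at least 10 CPM. Next are the 5 in each direction with the largest change among protein-coding called genes without an opposite-strand partner. For both, only genes whose groups do not overlap were eligible. The others are every called member of the 19 gene lists, up to 4 tested but uncalled members of each list with the highest level, and the core clock genes. Genes outside this rule are said to be chosen after their values were seen. The members and lists were chosen with earlier results of these data known. Alternatives covered normalization, filters, tests, the fit, a replicate block and each library left out, and 1 was added after seeing the data.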

Additional observations from a re-analysis of the deposited data

Results flagged for a closer look

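In some genes the difference between SD and LD after 8 h of dark was not the same as after 4 h, by a test of the difference itself in 1 edgeR fit of the 12 libraries, an alternative chosen after seeing the data. Of 10140 genes tested, 51 (0.503%) differed in this way, 1006 had an unadjusted p under 0.05, and 12 of the 133 called genes were among the 51. The fit reuses the SD ZT16 and LD ZT00 libraries that gave the 133, so this overlap is not independent of those calls. The rule for naming picks 3 of these 12: LHCB1.1, LHCB1.5 and BAM3. Lower FDR than in these 3 was found in AT2G43630 (difference -8.52, FDR = 0.00021), which is at 0 in SD ZT16, in AT4G06665 (1.95, FDR = 0.000354), which overlaps BAM3, and in GCN2 (1.67, FDR = 0.00123). LHCB1.1 had a log2 fold change of -5.51 after 8 h and -1.27 after 4 h, and the difference was -4.23 (SE 0.69, FDR = 0.0354). LHCB1.5 had -1.32 after 8 h and 0.97 after 4 h, a difference of -2.27 (SE 0.26, FDR = 0.00466). BAM3 had -1.61 after 8 h and -3.50 after 4 h, lower in SD at both times, a difference of 1.91 (SE 0.30, FDR = 0.0297). The LHCB1 copies share sequence, and LHCB1.5 and BAM3 are overlapped by genes on the other strand, over 1045 and 518 bases. The part of these overlaps was not tested.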

How the results depend on the processing

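All 133 genes kept their sign wherever they were tested in the 10 other ways of processing and with each of the 6 libraries left out. They were called on these same libraries, so the kept signs are not independent support. The count of 133 (42 higher, 91 lower in SD) was 130 with RLE normalization, 133 with library totals only, 137 without organelle genes and 133 without the gene with the most counts. Without a filter on low counts it was 94, with 25 higher. It was 246 with at least 10 counts in each library (118 higher, 128 lower), 559 with DESeq2 (275 higher, 284 lower), 252 with edgeR's exact test (105 higher, 147 lower) and 524 in 1 fit of all 54 libraries (237 higher, 287 lower). Leaving out 1 library gave 31 to 91 genes, with 3 to 37 higher and 22 to 54 lower. Of the 41 called genes under the naming rule, 5 (LNK2, RVE1, COL2, CRD1 and LHCB1.1) were called wherever tested except under the block, and the fit of all 54 libraries lost 14, among them LpxC2, AT1G07480 and AT1G18460. The causes were not tested.

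The letters A, B and C do not pair the libraries by label, and same-letter deviations correlated at -0.03, -0.16 and -0.03. With the letter as a replicate block, 0 genes were called (0 higher, 0 lower) in the main comparison, with a lowest FDR of 0.0725 and 584 genes at an unadjusted p under 0.05. The block gave 0 genes for EQ ZT20 against LD ZT00 (200 at an unadjusted p under 0.05) and 0 for SD ZT16 against EQ ZT20 (817), 68 for EQ ZT16 against EQ ZT00 and 280 for SD ZT12 against LD ZT20. The cause of the lost calls was not tested. With 1 library left out, the counts were 0 to 12 for EQ ZT20 against LD ZT00, 46 to 205 for SD ZT16 against EQ ZT20, 198 to 390 for EQ ZT16 against EQ ZT00, and 502 to 830 for SD ZT12 against LD ZT20. Where a group had 2 libraries left, its spread was estimated with that of the other group.

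With totals of 2430050 to 3648940 counts, genes below about 1 CPM could not be followed, and 3702 of 8272 tested genes have no overlapping partner. The fold of a gene listed at 0 in 1 group is a bound for these libraries only.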

Other observations

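Genes outside the lists, chosen after their values were seen, add single functions to the comparison. RPT2, a signalling partner of the blue light receptor phototropin, had 7.02, 6.99 and 8.77 CPM in SD ZT16 and 35.5, 43.8 and 34.9 CPM in LD ZT00 (log2 fold change -2.32, FDR = 0.0135 by edgeR), and no gene overlaps it. Of the phytochrome kinase substrate genes, PKS4 was lower in SD, at 29.9, 31.7 and 22.1 CPM against 81.0, 182 and 135 CPM in LD (log2 fold change -2.25). PKS1 was higher in SD, at 168, 211 and 182 CPM against 84.7, 99.0 and 90.1 CPM in LD (log2 fold change 1.03). These 3 genes were picked from the called genes, so separation of their groups is not a result about them. PKS1 and PKS4 were of opposite sign.

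CAT2, the catalase that removes peroxide of photorespiration, had 34.2, 30.6 and 38.6 CPM in SD and 77.6, 115 and 107 CPM in LD (log2 fold change -1.53, FDR = 0.035), while CAT3 had a positive log2 fold change, 1.17, that was not called. ABA1, the zeaxanthin epoxidase of abscisic acid synthesis, had 0 counts in SD and 11.7, 17.4 and 15.6 CPM in LD, at least 16.6-fold lower in SD against the floor of 3 counts per library, and no gene overlaps it. It lost its call with any 1 of the 6 libraries left out, with an FDR of 0.0609 without SD ZT16 B to 0.173 without LD ZT00 C.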
